A study of Mus musculus with 12 samples.

Results

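The 39 genes described here act in G2 and mitosis: CDK1 with its cyclins and activators (7 genes), the transcription factor Foxm1, mitotic kinases and spindle assembly factors (6), kinetochore and centromere proteins (6), the spindle checkpoint (4), the chromosomal passenger complex (4), regulators of anaphase onset (4), cytokinesis (5) and chromosome structure in cycling cells (2). They were chosen by name, and all 39 were found among the 35385 gene symbols of the deposited tables. RNA was measured in mouse oligodendrocyte progenitor cells (OPCs), the dividing precursors of myelin-forming cells, which had been derived from pluripotent stem cells. After 1 h of attachment in a medium that permits differentiation, the cells were exposed for 4 h to cetylpyridinium chloride (CPC; Tox1), to C12-C14-Alkyl(ethylbenzyl)dimethylammonium chloride (AEBDAC; Tox2), to methyltrioctylammonium chloride (MTOAC; Tox3), or to the vehicle DMSO, with 3 libraries per group and 12 in all. The 3 compounds are quaternary ammonium salts. The dose of a compound was its IC75, which inhibits by 75%, so doses differed; the concentrations and the inhibited readout are not given in the labels used here. All 4 groups shared the cell type, the medium and the time of attachment, the number of cell lines is not given, and the vehicle was the only control. The labels do not say that the libraries came from separate cultures, so the spread behind each p-value is that of these libraries and may be technical. Levels are in TPM, the share of a library's transcripts that a gene takes up after correction for transcript length. The single values of a group are those of its libraries 1, 2 and 3, and a mean is over these 3 libraries with its SD. A fold change is a difference of log2(TPM + 1), which understates the change of genes with low levels. A gene was called when its adjusted p was under 0.05 in limma, a linear model fitted over all 12009 genes tested; all 39 genes had at least 1 TPM in at least 3 libraries and were tested.

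The deposited totals were 772637 to 797758 TPM per library, with 15431 to 16210 symbols above 0; read depth is not recorded in TPM. Vehicle library 1 stood apart, with 86422 TPM on mitochondrially encoded genes against 147539 to 183001 TPM in the other 11 libraries, and many of the values it moved by over 1.5 times are given with and without it. The 8 OPC markers summed to 1577 to 1728 TPM with CPC, 1458 to 1726 TPM with AEBDAC, 1248 to 1357 TPM with MTOAC and 1967 to 2347 TPM with vehicle, so the defining markers of the labelled cell type were present, at lower sums in the treated libraries. Olig1 made up 704 to 855, 570 to 819, 456 to 613 and 1016 to 1284 TPM of these sums in the same order. Of the 8 markers, 3, 4 and 4 lay below all vehicle libraries with CPC, AEBDAC and MTOAC. These are 37.5%, 50% and 50%, against 18%, 19.2% and 22.4% of all genes tested. Sox10, Cspg4 and Ptprz1 overlapped with vehicle for each compound. The defining oligodendrocyte marker Mog, the microglial Cx3cr1 and the pluripotency markers Zfp42 and Dppa4 were listed at 0 in all 12 libraries. Other members of these lists were detected, among them the oligodendrocyte marker Cnp (32.1 to 59.8 TPM) and the pluripotency marker Esrrb (2.89 to 5.95 TPM). The pluripotency marker Pou5f1 stood at 7.83 TPM in vehicle library 1 and 9.64 TPM in MTOAC library 3, and at 0 in all others.

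Cells entering mitosis accumulate cyclin B, which activates CDK1; CDC25 phosphatases remove the inhibitory phosphates from CDK1, and Polo and Aurora kinases then drive centrosome maturation, spindle assembly and chromosome alignment. The spindle checkpoint holds back the anaphase-promoting complex until all kinetochores are attached, and CDC20 then directs that complex to securin and cyclin B. Most of these genes are transcribed in a wave in late S and G2 phase. Their promoters are held silent in resting and G1 cells by the DREAM complex through an element called the cell cycle genes homology region (CHR), and are activated by B-MYB, MuvB and FOXM1, often together with NF-Y bound to CCAAT boxes. OPCs divide in response to growth factors and leave the cell cycle when they differentiate.

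Because the promoters of these genes are known for shared elements, the promoters of 4 genes on which the results turn are shown: Plk1, Kif2c and Aurka, which were called with more than 1 compound, and Mki67, called with MTOAC. Each runs 5′ to 3′ on the strand of the gene from 250 bases before to 50 bases after the start annotated by RefSeq on GRCm38.p6. Capitals mark the CHR core, with the letters TTTGAA in its first form and, in its second form, the letters TTCGAA. They also mark the NF-Y box, with the letters CCAAT. Both strands were searched, so a match on the opposite strand appears as its reverse complement. The second form of the core reads the same on both strands, and in these 4 windows no core overlaps a box.
Plk1: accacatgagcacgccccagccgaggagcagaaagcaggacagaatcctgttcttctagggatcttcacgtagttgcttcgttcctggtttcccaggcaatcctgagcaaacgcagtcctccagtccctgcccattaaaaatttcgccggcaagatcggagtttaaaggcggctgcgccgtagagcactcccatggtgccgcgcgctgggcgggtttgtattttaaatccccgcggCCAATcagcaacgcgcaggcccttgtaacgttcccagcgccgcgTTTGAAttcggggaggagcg
Kif2c: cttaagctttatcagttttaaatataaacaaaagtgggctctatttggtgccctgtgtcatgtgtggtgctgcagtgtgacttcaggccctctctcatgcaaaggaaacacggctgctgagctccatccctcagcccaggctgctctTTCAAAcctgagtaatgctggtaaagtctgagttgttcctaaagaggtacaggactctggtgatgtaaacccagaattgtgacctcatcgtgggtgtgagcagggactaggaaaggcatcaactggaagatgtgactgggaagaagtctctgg
Aurka: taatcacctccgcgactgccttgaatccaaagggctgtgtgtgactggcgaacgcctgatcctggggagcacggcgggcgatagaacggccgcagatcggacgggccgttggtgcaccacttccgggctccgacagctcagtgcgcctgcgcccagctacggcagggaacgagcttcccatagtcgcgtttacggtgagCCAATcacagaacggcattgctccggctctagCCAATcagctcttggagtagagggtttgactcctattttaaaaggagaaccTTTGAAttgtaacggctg
Mki67: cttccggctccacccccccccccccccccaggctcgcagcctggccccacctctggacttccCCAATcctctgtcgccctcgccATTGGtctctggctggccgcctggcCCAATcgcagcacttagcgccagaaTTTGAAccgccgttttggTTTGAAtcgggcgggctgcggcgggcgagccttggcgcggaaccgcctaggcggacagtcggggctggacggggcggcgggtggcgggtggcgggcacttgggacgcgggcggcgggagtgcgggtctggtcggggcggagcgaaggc
The Plk1 window (chr7:122159185-122159484, plus strand) holds a CCAAT box whose first base lies at -14 and a core at 30, counted from the start. The Aurka window (chr2:172370521-172370820, minus strand) has boxes at -51 and -19 and a core at 32. In the Mki67 window (chr7:135716330-135716629, minus strand) boxes at -188, -166 and -141 precede cores at -116 and -98. The Kif2c window (chr4:117178723-117179022, minus strand) has a core at -103 and no CCAAT box; this RefSeq start lies inside the gene as GENCODE draws it.

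Of the 39 genes, 32 had a promoter entry, and Ccna2, Cdc25c, Foxm1, Tpx2, Aurkb, Incenp and Kif20a had none. A CHR core was found in 24 of the 32 (75%), against 20.2% of the 17492 protein-coding promoters of the same length. CCAAT was found in 24 of the 32 (75%), against 42.3% of all. Both kinds stood together in 65.6% of the 32 promoters and in 9.2% of all. Of 61 further G2 and mitosis genes with a promoter entry, 67.2% held a core, 72.1% CCAAT and 52.5% both, so these elements are not particular to the 39 genes. In the 150 bases from 100 before to 50 after the start, 71.9% of the 32 held a core and 8.7% of all did. In 21 promoters a box preceded a core, in 18 of them by at most 60 bases, with a median distance of 32 bases and a range of 9 to 153. Of the 12 genes with an entry that were called lower with MTOAC (as were 5.75% of all genes tested), all held a core and 11 a CCAAT box; of the 20 not called, 12 held a core and 13 a CCAAT box. No test was made of this difference, and a match describes letters in a window, not binding. Among the 12 is Kif2c, whose RefSeq start lies inside the gene as GENCODE draws it. Among the 20 are Cenpe, Nuf2, Ttk, Birc5, Cdc20, Ube2c and Pttg1, which had means under 10 TPM in vehicle.

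**Figure D1:**
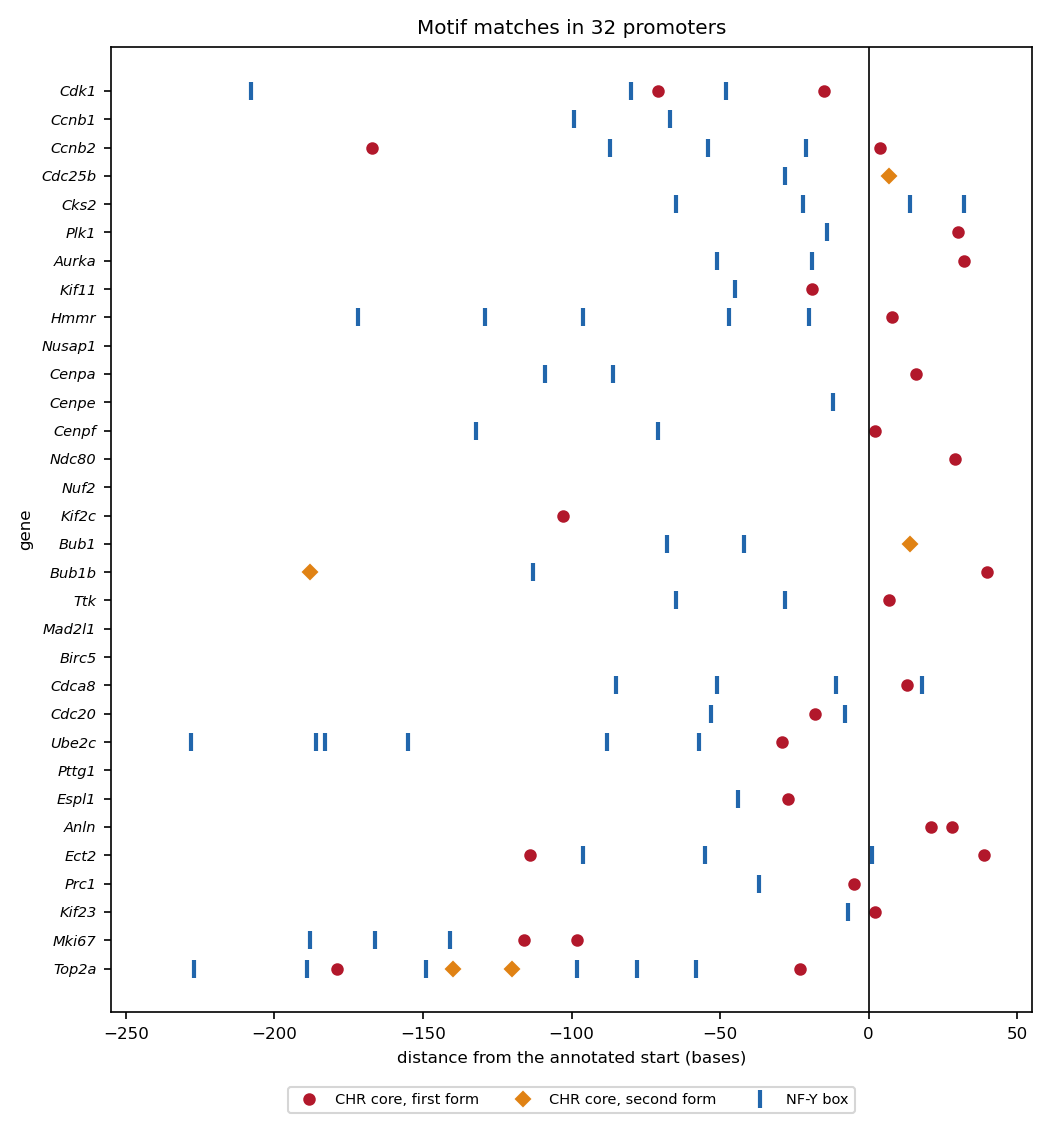
Positions of CHR cores (circles for the first form, diamonds for the second) and CCAAT boxes (bars) relative to the annotated start in bases (x axis) for the 32 genes with a promoter entry (y axis). In 21 of them a box lies before a core, in 18 by at most 60 bases.

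After 4 h most of the G2 and mitosis genes stood lower with each compound than with vehicle, and the calls were most numerous with MTOAC. Of the 39 genes, 17 were called lower with MTOAC, 5 with AEBDAC and none with CPC, against 5.75%, 0.883% and 0.0333% of all genes tested. None of the 39 was called higher with any compound. The polo kinase Plk1, the Aurora kinases Aurka and Aurkb, the microtubule depolymerase Kif2c and the cytokinesis kinesin Kif20a were called with both AEBDAC and MTOAC. In GENCODE M21 on GRCm38, Plk1 (ENSMUSG00000030867) lies at chr7:122159439-122169873, Aurka (ENSMUSG00000027496) at chr2:172356190-172370535, Aurkb (ENSMUSG00000020897) at chr11:69045647-69051664 and Kif2c (ENSMUSG00000028678) at chr4:117159639-117182639; the values count their whole transcripts. The 3 comparisons share the vehicle libraries. Since these are bulk samples, fewer cells in G2 and mitosis and less RNA of these genes per cell cannot be told apart.

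The summed level of the 39 genes was 1846, 1777 and 1817 TPM in CPC libraries 1 to 3, 1802, 1519 and 1719 TPM with AEBDAC, 1567, 1430 and 1657 TPM with MTOAC, and 2815, 2282 and 2255 TPM with vehicle. Every treated library lay below every vehicle library. The mean was 1813 ± 34.6 TPM with CPC, 1680 ± 146 TPM with AEBDAC, 1551 ± 114 TPM with MTOAC and 2450 ± 316 TPM with vehicle (SD, n = 3 each), which put the compounds 26.0%, 31.4% and 36.7% below vehicle. Against vehicle libraries 2 and 3 alone the sums were 20.1%, 25.9% and 31.6% lower. These genes made up 0.182% to 0.231% of the summed TPM of a treated library and 0.285% to 0.364% in vehicle libraries.

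**Figure D2:**
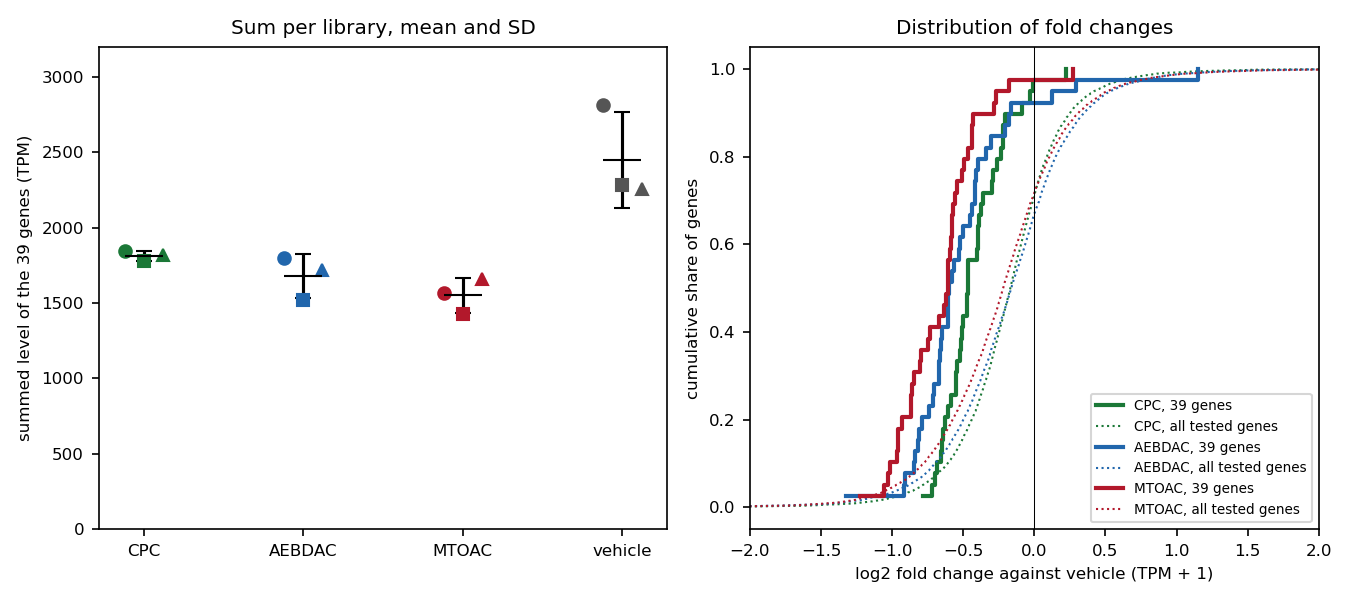
Left, summed level of the 39 genes in TPM per library (circle, square and triangle for libraries 1, 2 and 3) with mean and SD for each group; all 9 treated libraries lie between 1430 and 1846 TPM and the vehicle libraries between 2255 and 2815 TPM. Right, cumulative share of genes against the log2 fold change from vehicle, with the 39 genes as solid lines and all 12009 tested genes as dotted lines; the solid lines have their medians at -0.47, -0.60 and -0.61 for CPC, AEBDAC and MTOAC.

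With MTOAC, 17 of 39 genes were called lower (43.6%), against 5.75% of all genes tested. The median fold change of the 39 was -0.61 log2, beside -0.22 for all genes tested, and 38 of 39 fold changes were negative, as were 71.7% over all genes. At an unadjusted p under 0.05, 28 genes were lower (71.8%, against 21% of all genes). The MTOAC and vehicle libraries did not overlap for 25 of the 39 genes (64.1%, lower with MTOAC in each), against 22.4% of all genes tested. With AEBDAC, 5 of 39 were called lower (12.8%), against 0.883% of all genes, and 27 did not overlap (69.2%, all lower), against 19.2%. The median with AEBDAC was -0.60 log2, beside -0.16 for all genes, 36 of 39 fold changes were negative (67% of all genes), and 28 were lower at an unadjusted p under 0.05 (71.8%, against 15.2% of all genes). With CPC, 0 of 39 were called by limma, against 0.0333% of all genes called lower, while 23 (59.0%) were lower at an unadjusted p under 0.05, against 11.8% of all genes. For CPC 25 genes did not overlap with vehicle (64.1%, all lower), against 18% of all, and the median was -0.47 log2 beside -0.17, with 38 of 39 fold changes negative (71.1% of all genes). None of the 39 was called higher with MTOAC, AEBDAC or CPC, where 0.791%, 0.391% and 0.0333% of all genes were. Under quantile normalization 13, 4 and 0 of the 39 were called lower with MTOAC, AEBDAC and CPC (1.81%, 0.716% and 0.0333% of all genes).

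The number of calls depended on single libraries, while the median did so less. Without vehicle library 1, 12 genes were called lower with MTOAC (2.07% of all genes), none with AEBDAC (0.167% of all genes) and none with CPC (0.0167%), and the medians were -0.56, -0.51 and -0.39. The fold changes of 12, 14 and 19 of the 39 genes with MTOAC, AEBDAC and CPC moved by over 1.5 times. Set against vehicle libraries 2 and 3 alone, 27, 28 and 26 of the 39 genes lay lower without overlap with MTOAC, AEBDAC and CPC (26.7%, 23% and 22.5% of all genes). Without MTOAC library 1, 2 or 3, the count with MTOAC was 11, 4 or 19, beside 232, 119 or 526 of all 12009 genes called lower. Without vehicle library 2 or 3 it was 11 or 13, beside 279 or 282 of all genes. With AEBDAC it was 1 without AEBDAC library 1 and also 1 without vehicle library 3, beside 79 and 25 of all genes called lower. The count was 0 without any 1 of the other 4 libraries, beside 3 to 20 of all genes. Aurkb, Cdc25c, Kif2c and Plk1 kept their call with MTOAC in all 6 such fits. For CPC and vehicle the replicate numbers met the criterion for pairing. In a limma fit with the replicate number as a block, Bub1b (adjusted p = 0.0448) and Kif20a (adjusted p = 0.0422) were called lower, against 1.25% of all genes. The block spanned all 12 libraries, also those of AEBDAC and MTOAC, which did not meet the criterion against vehicle. Over all alternatives the adjusted p of Bub1b and Kif20a with CPC ran up to 0.542 and 0.537.

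**Figure D3:**
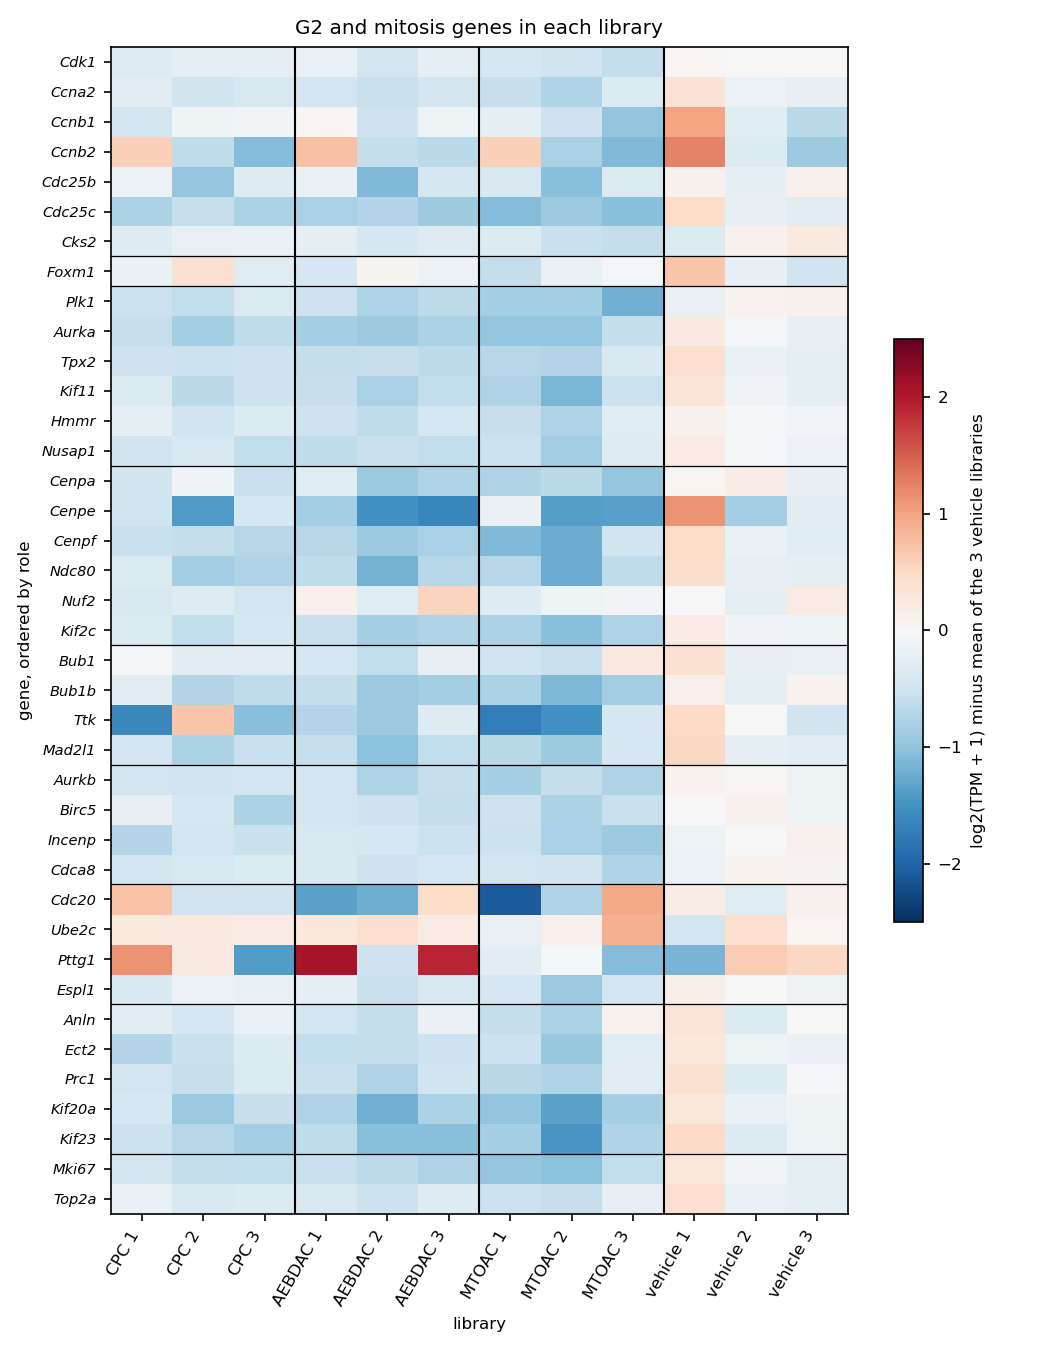
Difference of log2(TPM + 1) from the mean of the 3 vehicle libraries (colour, blue lower and red higher) for the 39 genes (rows, grouped by role) in each of the 12 libraries (columns). Most rows are blue in the 9 treated columns; vehicle library 1 is the highest vehicle library for 29 genes, and the anaphase genes Cdc20, Ube2c and Pttg1 follow no group.

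CDK1 and its phosphatase Cdc25c were called lower with MTOAC among the 7 genes of the CDK1 group (28.6%, against 5.75% of all genes tested), and none of the 7 with AEBDAC or CPC. Cdk1, the kinase that drives entry into mitosis, had 238, 252 and 255 TPM with CPC, 261, 214 and 251 TPM with AEBDAC, 219, 211 and 198 TPM with MTOAC, and 304, 294 and 296 TPM with vehicle. Treated libraries all lay below the vehicle libraries, and the mean was 209 ± 10.6 TPM with MTOAC and 298 ± 5.08 TPM with vehicle (SD, n = 3 each), a fold change of -0.51 ± 0.10 log2 (adjusted p = 0.0162). With AEBDAC it was -0.30 ± 0.10 log2 (adjusted p = 0.124) and with CPC -0.26 ± 0.10 log2 (adjusted p = 0.287). Cdc25c, which removes the inhibitory phosphates of CDK1, had 17.2, 20.2 and 17.2 TPM with CPC, 16.9, 17.96 and 15.9 TPM with AEBDAC, 13.8, 15.5 and 14.2 TPM with MTOAC, and 42.6, 26.3 and 25.4 TPM with vehicle. Vehicle library 1 was far above the other vehicle libraries, yet no treated library reached any of the 3. The fold change was -1.03 ± 0.18 log2 (adjusted p = 0.0142) with MTOAC, -0.82 ± 0.18 log2 (adjusted p = 0.0567) with AEBDAC and -0.72 ± 0.18 log2 (adjusted p = 0.163) with CPC.

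The mitotic cyclins did not pass the test. Ccnb1, the cyclin B that partners CDK1, had 32.9, 43.2 and 44.6 TPM with CPC, 47.3, 32.3 and 42.6 TPM with AEBDAC, 39.01, 32.3 and 22.9 TPM with MTOAC, and 93.6, 37.3 and 28.7 TPM with vehicle. Its vehicle libraries spread more widely than any treated group, and the groups overlap. The fold change was -0.59 ± 0.36 log2 (adjusted p = 0.352) with MTOAC and -0.09 without vehicle library 1; with CPC it was -0.22 over all libraries and 0.28 without vehicle library 1, and with AEBDAC -0.21 and 0.29. Ccnb2, the second cyclin B, had 15.9, 6.15 and 4.24 TPM with CPC, 17.5, 6.36 and 6.02 TPM with AEBDAC, 15.9, 5.35 and 4.16 TPM with MTOAC, and 25.5, 7.78 and 4.96 TPM with vehicle. Library 1 was the highest in all 4 groups, at 15.9 to 25.5 TPM, while libraries 2 and 3 stayed at 4.16 to 7.78 TPM. Within each library number the CPC and MTOAC values lay below the vehicle value. The fold change with MTOAC was -0.44 ± 0.65 log2 (adjusted p = 0.733), and 0.18 without vehicle library 1. Cyclin A2 (Ccna2), which acts from S phase into early mitosis, had -0.56 ± 0.16 log2 (adjusted p = 0.0556) with MTOAC and its treated libraries (73.9 to 102 TPM) did not reach those of vehicle (108 to 161 TPM).

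Cdc25b, another CDK1-activating phosphatase, and Cks2, a small subunit bound by CDK1, were not called. Cdc25b had fold changes of -0.48, -0.57 and -0.60 with CPC, AEBDAC and MTOAC, the first of them -0.23 without CPC library 2. Cks2 had 145, 158 and 162 TPM with CPC, 152, 133 and 144 TPM with AEBDAC, 143, 122 and 119.9 TPM with MTOAC, and 142, 195 and 213 TPM with vehicle. Of the vehicle libraries, library 1 alone lay within the treated range, and the fold change with MTOAC was -0.50 ± 0.14 log2 (adjusted p = 0.0628), with adjusted p from 0.0213 to 0.295 over the alternatives. The annotated pseudogene Gm15452 aligns to 240 bases of Cks2 at 100% identity, and it was listed at 59.97 TPM in vehicle library 1 and at 0 in the other 11 libraries. Summed with this copy, a step added after the values were seen, Cks2 stood at 202, 195 and 213 TPM with vehicle, above all treated libraries, and the fold changes were -0.67 ± 0.10 with MTOAC (adjusted p = 0.00903), -0.51 with AEBDAC (adjusted p = 0.0411) and -0.39 with CPC (adjusted p = 0.174). How Salmon divided the reads between the copies was not tested. Foxm1, the transcription factor that drives many of the other genes, had 18.5, 27.5 and 16.9 TPM with CPC, 15.5, 22.0 and 19.0 TPM with AEBDAC, 13.5, 18.3 and 20.2 TPM with MTOAC, and 34.6, 18.1 and 14.7 TPM with vehicle. The groups overlap, and the fold changes were -0.03, -0.16 and -0.28 with CPC, AEBDAC and MTOAC (adjusted p = 0.976, 0.807 and 0.608). Without vehicle library 1 they were 0.32, 0.18 and 0.07.

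Of the 6 mitotic kinases and spindle assembly factors, 5 fell with MTOAC (Plk1, Aurka, Tpx2, Kif11 and Hmmr) and 2 with AEBDAC (Plk1 and Aurka), against 5.75% and 0.883% of all genes tested. All 6 lay below vehicle without overlap with every compound, against 18%, 19.2% and 22.4% of all genes with CPC, AEBDAC and MTOAC. Plk1, the polo kinase of centrosome maturation and mitotic entry, had 65.8, 62.1 and 73.9 TPM with CPC, 66.3, 55.5 and 60.5 TPM with AEBDAC, 53.5, 52.7 and 40.8 TPM with MTOAC, and 83.8, 101 and 103 TPM with vehicle. The groups are ordered with MTOAC lowest, and the mean was 49.0 ± 7.12 TPM with MTOAC, 60.8 ± 5.42 TPM with AEBDAC and 96.0 ± 10.6 TPM with vehicle. The fold change was -0.96 ± 0.14 log2 (adjusted p = 0.00677) with MTOAC, -0.65 ± 0.14 log2 (adjusted p = 0.049) with AEBDAC and -0.50 ± 0.14 log2 (adjusted p = 0.188) with CPC. For Plk1, vehicle library 1 was the lowest vehicle library, unlike for most of the genes. Aurka, the Aurora kinase of centrosomes and spindle poles, had 50.3, 41.3 and 48.1 TPM with CPC, 41.9, 40.0 and 42.8 TPM with AEBDAC, 37.8, 37.9 and 49.4 TPM with MTOAC, and 88.0, 73.4 and 65.4 TPM with vehicle. All 9 treated libraries stood at or below 50.3 TPM and the vehicle libraries at or above 65.4 TPM. Aurka fell by 0.84 ± 0.15 log2 (adjusted p = 0.0131) with MTOAC and by 0.84 ± 0.15 log2 (adjusted p = 0.032) with AEBDAC, and differed by -0.68 ± 0.15 log2 (adjusted p = 0.12) with CPC.

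Tpx2, which activates Aurora A on spindle microtubules, had 72.5, 71.1 and 72.0 TPM with CPC, 68.4, 69.6 and 65.6 TPM with AEBDAC, 63.1, 62.2 and 79.3 TPM with MTOAC, and 138, 92.5 and 87.6 TPM with vehicle. Its fold change with MTOAC was -0.61 ± 0.16 log2 (adjusted p = 0.0477), just within the threshold, and -0.40 without vehicle library 1. Kif11, the kinesin that pushes spindle poles apart, had 50.5, 40.2 and 44.5 TPM with CPC, 43.0, 36.1 and 41.4 TPM with AEBDAC, 37.9, 28.7 and 44.3 TPM with MTOAC, and 80.8, 61.0 and 54.3 TPM with vehicle. With MTOAC the fold change was -0.81 ± 0.18 log2 (adjusted p = 0.0313), and the lowest vehicle library (54.3 TPM) stood above the highest treated one (50.5 TPM). Hmmr, a microtubule-binding spindle protein, had 37.1, 30.7 and 34.2 TPM with CPC, 30.4, 28.0 and 31.9 TPM with AEBDAC, 29.3, 25.4 and 35.6 TPM with MTOAC, and 47.3, 42.7 and 41.6 TPM with vehicle. Hmmr fell by 0.54 ± 0.14 log2 (adjusted p = 0.0437) with MTOAC. Tpx2, Kif11 and Hmmr each lost the call without MTOAC library 1 or 2 and without vehicle library 1 or 2, and Tpx2 and Hmmr also without vehicle library 3. Nusap1, which bundles spindle microtubules, missed the threshold with MTOAC at -0.58 ± 0.17 log2 (adjusted p = 0.0664).

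**Figure D4:**
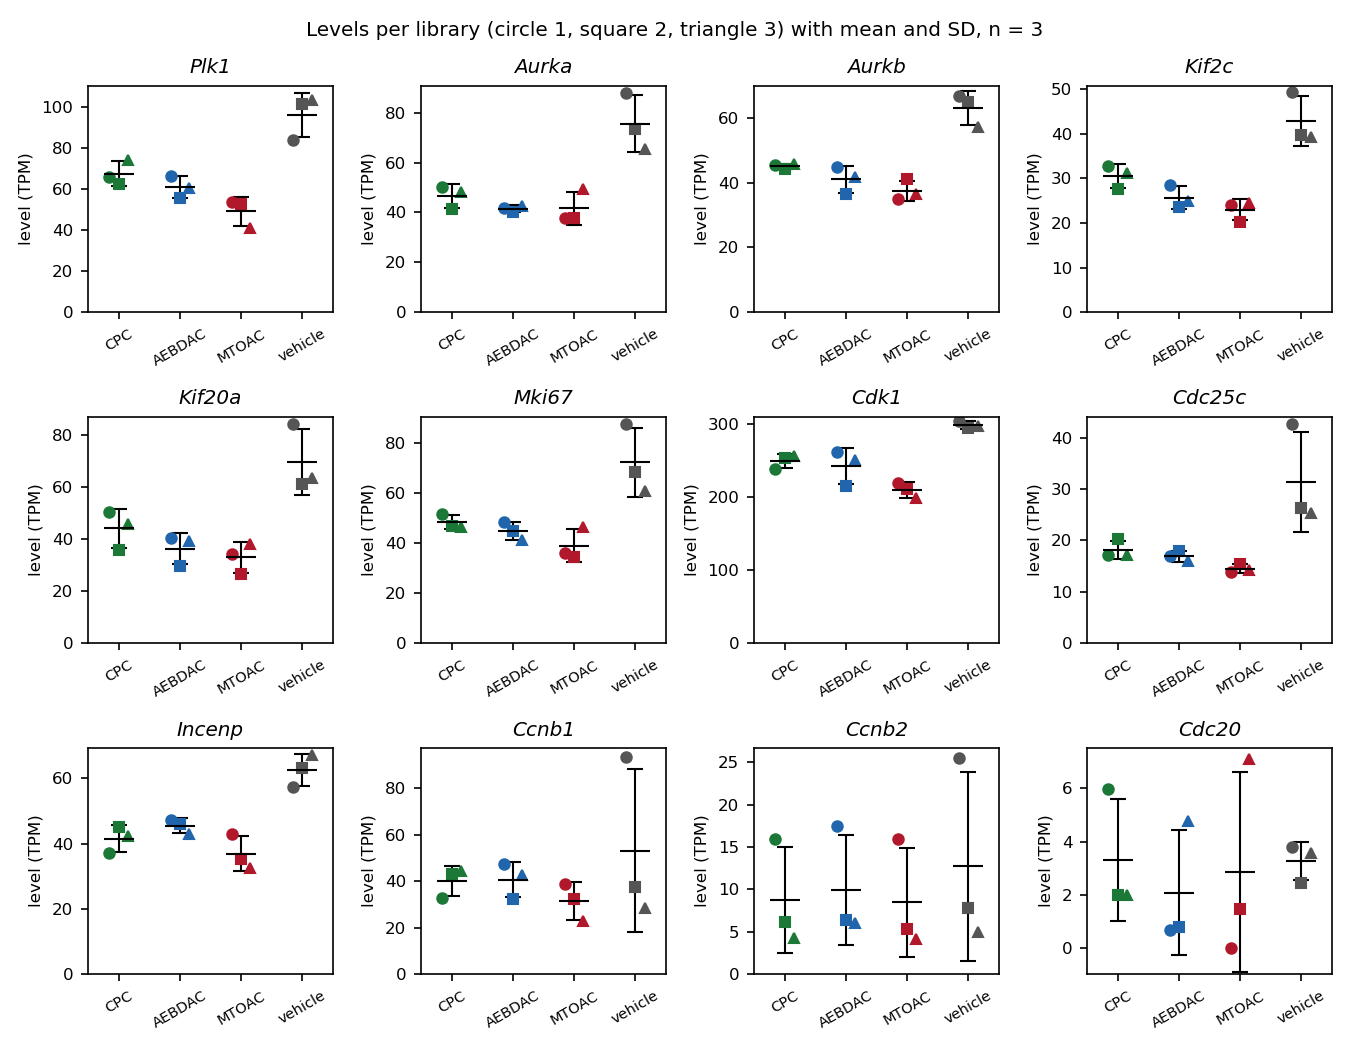
Level in TPM (y axis, from 0 for each gene except that the SD bar of Cdc20 runs below 0) per library for 12 of the genes, with mean and SD for CPC, AEBDAC, MTOAC and vehicle. Plk1, Aurka, Aurkb, Kif2c, Kif20a, Mki67, Cdk1, Cdc25c and Incenp separate every treated library from every vehicle library, while Ccnb1, Ccnb2 and Cdc20 overlap.

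At the kinetochore 3 of 6 genes fell with MTOAC (Kif2c, Cenpa and Cenpf) and 1 with AEBDAC (Kif2c), against 5.75% and 0.883% of all genes tested. Kif2c, which depolymerises microtubules to correct wrong attachments, had 32.7, 27.6 and 31.3 TPM with CPC, 28.5, 23.5 and 25.0 TPM with AEBDAC, 24.1, 20.2 and 24.4 TPM with MTOAC, and 49.2, 39.8 and 39.3 TPM with vehicle. The mean was 22.9 ± 2.33 TPM with MTOAC, 25.7 ± 2.59 TPM with AEBDAC, 30.5 ± 2.65 TPM with CPC and 42.8 ± 5.59 TPM with vehicle, and no treated library overlapped with vehicle. The fold change was -0.87 ± 0.14 log2 (adjusted p = 0.0106) with MTOAC, -0.71 ± 0.14 log2 (adjusted p = 0.0404) with AEBDAC and -0.47 ± 0.14 log2 (adjusted p = 0.209) with CPC. Cenpa, the histone variant that marks centromeres, had 93.9, 125 and 90.1 TPM with CPC, 108, 70.1 and 78.0 TPM with AEBDAC, 79.1, 83.3 and 68.5 TPM with MTOAC, and 137, 151 and 116 TPM with vehicle. CPC library 2 reached into the vehicle range, and the MTOAC libraries stayed below it with -0.80 ± 0.18 log2 (adjusted p = 0.0313). Cenpf, a large outer kinetochore protein, had 19.0, 18.4 and 16.9 TPM with CPC, 17.1, 14.7 and 15.7 TPM with AEBDAC, 12.6, 11.4 and 19.7 TPM with MTOAC, and 39.5, 25.4 and 22.9 TPM with vehicle. With MTOAC the fold change was -0.96 ± 0.23 log2 (adjusted p = 0.0345), and even MTOAC library 3, the highest of its group at 19.7 TPM, stayed below the lowest vehicle library at 22.9 TPM. Cenpa and Cenpf each lost the call without MTOAC library 1 or 2 and without vehicle library 1 or 2, and Cenpa also without MTOAC library 3.

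Cenpe, the kinesin that carries chromosomes to the spindle equator, was not called, though its fold change was the lowest of the 39 with CPC, -0.78, and with AEBDAC, -1.33 ± 0.52 log2 (adjusted p = 0.202). Cenpe stood at 1.84, 0.486 and 1.96 TPM with CPC, 1.23, 0.405 and 0.287 TPM with AEBDAC, 2.56, 0.544 and 0.557 TPM with MTOAC, and 7.71, 1.21 and 2.30 TPM with vehicle. These levels lie close to the filter of 1 TPM, and vehicle library 1 is the highest of the 12 by far. Without it the fold changes were -0.22 with CPC, -0.76 with AEBDAC and -0.40 with MTOAC, and Cenpe was the lowest in none of the 3 comparisons. Ndc80, the microtubule-binding subunit of the NDC80 complex, had -0.65, -0.84 and -0.86 with CPC, AEBDAC and MTOAC, the last with an adjusted p of 0.0582, and -0.43 with CPC without vehicle library 1. Its partner Nuf2 had -0.40, 0.12 and -0.18, at 3.88 to 8.91 TPM over all libraries.

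Of the 4 spindle checkpoint genes, Bub1b alone was called, with MTOAC (25%, against 5.75% of all genes tested). Bub1b, the checkpoint kinase homologue BUBR1, had 33.9, 24.1 and 25.9 TPM with CPC, 26.9, 20.9 and 22.2 TPM with AEBDAC, 23.4, 18.2 and 21.8 TPM with MTOAC, and 45.0, 34.8 and 43.6 TPM with vehicle. All treated libraries lay below the vehicle libraries, with fold changes of -0.93 ± 0.17 log2 (adjusted p = 0.0151) with MTOAC, -0.79 ± 0.17 log2 (adjusted p = 0.0502) with AEBDAC and -0.55 ± 0.17 log2 (adjusted p = 0.222) with CPC. Mad2l1, which encodes the checkpoint protein MAD2, had 46.3, 37.2 and 43.6 TPM with CPC, 43.0, 31.2 and 41.9 TPM with AEBDAC, 39.7, 34.7 and 47.6 TPM with MTOAC, and 92.8, 54.6 and 53.2 TPM with vehicle. Vehicle library 1 was the highest by far, and no treated library reached the other vehicle libraries. The fold changes of -0.60 with CPC, -0.74 with AEBDAC and -0.67 ± 0.22 log2 (adjusted p = 0.0865) with MTOAC were not called. Without vehicle library 1 they were -0.35, -0.48 and -0.41. Bub1, the kinase that recruits BUBR1, had -0.20, -0.42 and -0.27 with CPC, AEBDAC and MTOAC, and -0.01, -0.22 and -0.08 without vehicle library 1. Ttk, the MPS1 kinase that starts checkpoint signalling, had 0.257, 5.22 and 0.858 TPM with CPC, 1.29, 1.05 and 2.08 TPM with AEBDAC, 0.150, 0.337 and 1.86 TPM with MTOAC, and 4.43, 2.81 and 1.72 TPM with vehicle. Ttk had the lowest fold change with MTOAC, -1.22 ± 0.55 log2 (adjusted p = 0.201), but its libraries overlap in every comparison.

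Of the chromosomal passenger complex, which corrects attachments and later guides cytokinesis, 3 of 4 genes fell with MTOAC and 1 with AEBDAC, against 5.75% and 0.883% of all genes tested. All 4 lay below vehicle without overlap with every compound, against 18%, 19.2% and 22.4% of all genes with CPC, AEBDAC and MTOAC. Aurkb, its kinase, had 45.4, 44.2 and 45.7 TPM with CPC, 44.8, 36.6 and 41.8 TPM with AEBDAC, 34.8, 41.0 and 36.4 TPM with MTOAC, and 66.8, 65.0 and 57.1 TPM with vehicle. The mean was 37.4 ± 3.21 TPM with MTOAC, 41.1 ± 4.18 TPM with AEBDAC, 45.1 ± 0.785 TPM with CPC and 63.0 ± 5.20 TPM with vehicle. Aurkb fell by 0.74 ± 0.12 log2 (adjusted p = 0.0105) with MTOAC and by 0.61 ± 0.12 log2 (adjusted p = 0.0399) with AEBDAC, and differed by -0.47 ± 0.12 log2 (adjusted p = 0.154) with CPC. Incenp, the scaffold, had 37.0, 45.0 and 42.3 TPM with CPC, 47.3, 46.0 and 42.9 TPM with AEBDAC, 42.8, 35.3 and 32.6 TPM with MTOAC, and 57.3, 63.0 and 67.2 TPM with vehicle. Vehicle library 1 was the lowest of the vehicle libraries here, and Incenp fell by 0.75 ± 0.13 log2 (adjusted p = 0.0131) with MTOAC. Cdca8, which encodes borealin, had 74.1, 77.8 and 81.1 TPM with CPC, 78.4, 71.7 and 76.8 TPM with AEBDAC, 73.9, 72.6 and 60.8 TPM with MTOAC, and 92.8, 109 and 107 TPM with vehicle. Its fold change with MTOAC was -0.57 ± 0.11 log2 (adjusted p = 0.0168). Birc5, which encodes survivin, had -0.47, -0.52 and -0.62 ± 0.21 log2 (adjusted p = 0.0995) with CPC, AEBDAC and MTOAC.

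None of the 4 genes of anaphase onset was called. Cdc20, the activator of the anaphase-promoting complex, had 5.96, 2 and 2.001 TPM with CPC, 0.668, 0.8003 and 4.78 TPM with AEBDAC, 0, 1.47 and 7.11 TPM with MTOAC, and 3.78, 2.43 and 3.58 TPM with vehicle. It was listed at 0 in MTOAC library 1 and was highest in MTOAC library 3, so the spread within that group exceeded any difference between groups. Ube2c, the ubiquitin-conjugating enzyme of that complex, had 1.44, 1.44 and 1.40 TPM with CPC, 1.49, 1.76 and 1.39 TPM with AEBDAC, 0.821, 1.26 and 2.83 TPM with MTOAC, and 0.517, 1.73 and 1.16 TPM with vehicle. Ube2c had the highest fold change with CPC (0.23) and with MTOAC (0.27), neither called; without vehicle library 1 they were -0.00039 and 0.05. Pttg1, which encodes securin, had 8.28, 3.96 and 0.622 TPM with CPC, 16.6, 1.98 and 14.9 TPM with AEBDAC, 2.55, 3.09 and 0.990 TPM with MTOAC, and 0.903, 5.57 and 5.11 TPM with vehicle. AEBDAC libraries 1 and 3 were the highest of all 12, and its fold change with AEBDAC, 1.15 ± 0.79 log2 (adjusted p = 0.461), was the highest in that comparison, and 0.57 without vehicle library 1. Espl1, the separase that cuts cohesin, had -0.24, -0.39 and -0.61 ± 0.17 log2 (adjusted p = 0.057) with CPC, AEBDAC and MTOAC. Cdc20, Ube2c and Pttg1, with Cenpe, Nuf2, Ttk and Birc5, were the 7 genes with a mean under 10 TPM in vehicle, and none of these 7 was called; the 17 called genes were among the other 32.

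Of the 5 cytokinesis genes, Kif20a and Kif23 fell with MTOAC (40%) and Kif20a with AEBDAC (20%), against 5.75% and 0.883% of all genes tested. Kif20a, a kinesin of the central spindle, had 50.6, 36.0 and 45.9 TPM with CPC, 40.4, 29.5 and 39.2 TPM with AEBDAC, 34.3, 26.5 and 38.3 TPM with MTOAC, and 84.1, 61.2 and 63.6 TPM with vehicle. The fold change was -1.05 ± 0.19 log2 (adjusted p = 0.0151) with MTOAC, -0.92 ± 0.19 log2 (adjusted p = 0.0479) with AEBDAC and -0.65 ± 0.19 log2 (adjusted p = 0.215) with CPC, and no treated library reached the vehicle range. Kif20a shares 1271 exonic bases with Cdc23 on the opposite strand, which was listed at 26.6 to 52.6 TPM, and reads of the pair cannot be told apart where the library does not keep strand. Kif23, the kinesin of the centralspindlin complex, had 34.6, 30.4 and 27.5 TPM with CPC, 32.1, 24.0 and 23.8 TPM with AEBDAC, 28.0, 17.6 and 29.5 TPM with MTOAC, and 70.2, 39.4 and 46.2 TPM with vehicle. Kif23 fell by 1.01 ± 0.24 log2 (adjusted p = 0.0348) with MTOAC, and lost the call without MTOAC library 1 or 2 and without vehicle library 1 or 3. Ect2, the exchange factor that activates RhoA at the cleavage site, had -0.54, -0.58 and -0.59 with CPC, AEBDAC and MTOAC. Prc1, which bundles midzone microtubules, had -0.47, -0.61 and -0.58, and the actin-binding Anln had -0.30, -0.41 and -0.43. Without vehicle library 1, Prc1 had -0.28 with CPC and -0.38 with MTOAC, and Anln had -0.13, -0.25 and -0.27 with the 3 compounds.

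Mki67, whose protein Ki-67 coats mitotic chromosomes and marks cycling cells, had 51.7, 47.0 and 46.6 TPM with CPC, 48.4, 45.0 and 41.3 TPM with AEBDAC, 35.9, 34.6 and 46.5 TPM with MTOAC, and 87.7, 68.3 and 60.9 TPM with vehicle. The mean was 38.99 ± 6.53 TPM with MTOAC, 44.9 ± 3.59 TPM with AEBDAC, 48.5 ± 2.84 TPM with CPC and 72.3 ± 13.8 TPM with vehicle. Mki67 fell by 0.87 ± 0.15 log2 (adjusted p = 0.0141) with MTOAC; with AEBDAC it differed by -0.66 ± 0.15 log2 (adjusted p = 0.0651) and with CPC by -0.55 ± 0.15 log2 (adjusted p = 0.194). Top2a, the topoisomerase that untangles chromosomes, had 206, 177 and 182 TPM with CPC, 175, 157 and 184 TPM with AEBDAC, 158, 154 and 201 TPM with MTOAC, and 303, 203 and 198 TPM with vehicle. MTOAC library 3 and CPC library 1 reached the lower vehicle libraries, and the fold change was -0.44 ± 0.17 log2 (adjusted p = 0.134) with MTOAC and -0.24 without vehicle library 1. Cdk1, Aurka, Bub1b, Incenp, Kif20a and Mki67 each lost the call with MTOAC without MTOAC library 2 and kept it without any 1 of the other 5 libraries; Cdca8 lost it without MTOAC library 2 or vehicle library 2 or 3.

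**Figure D5:**
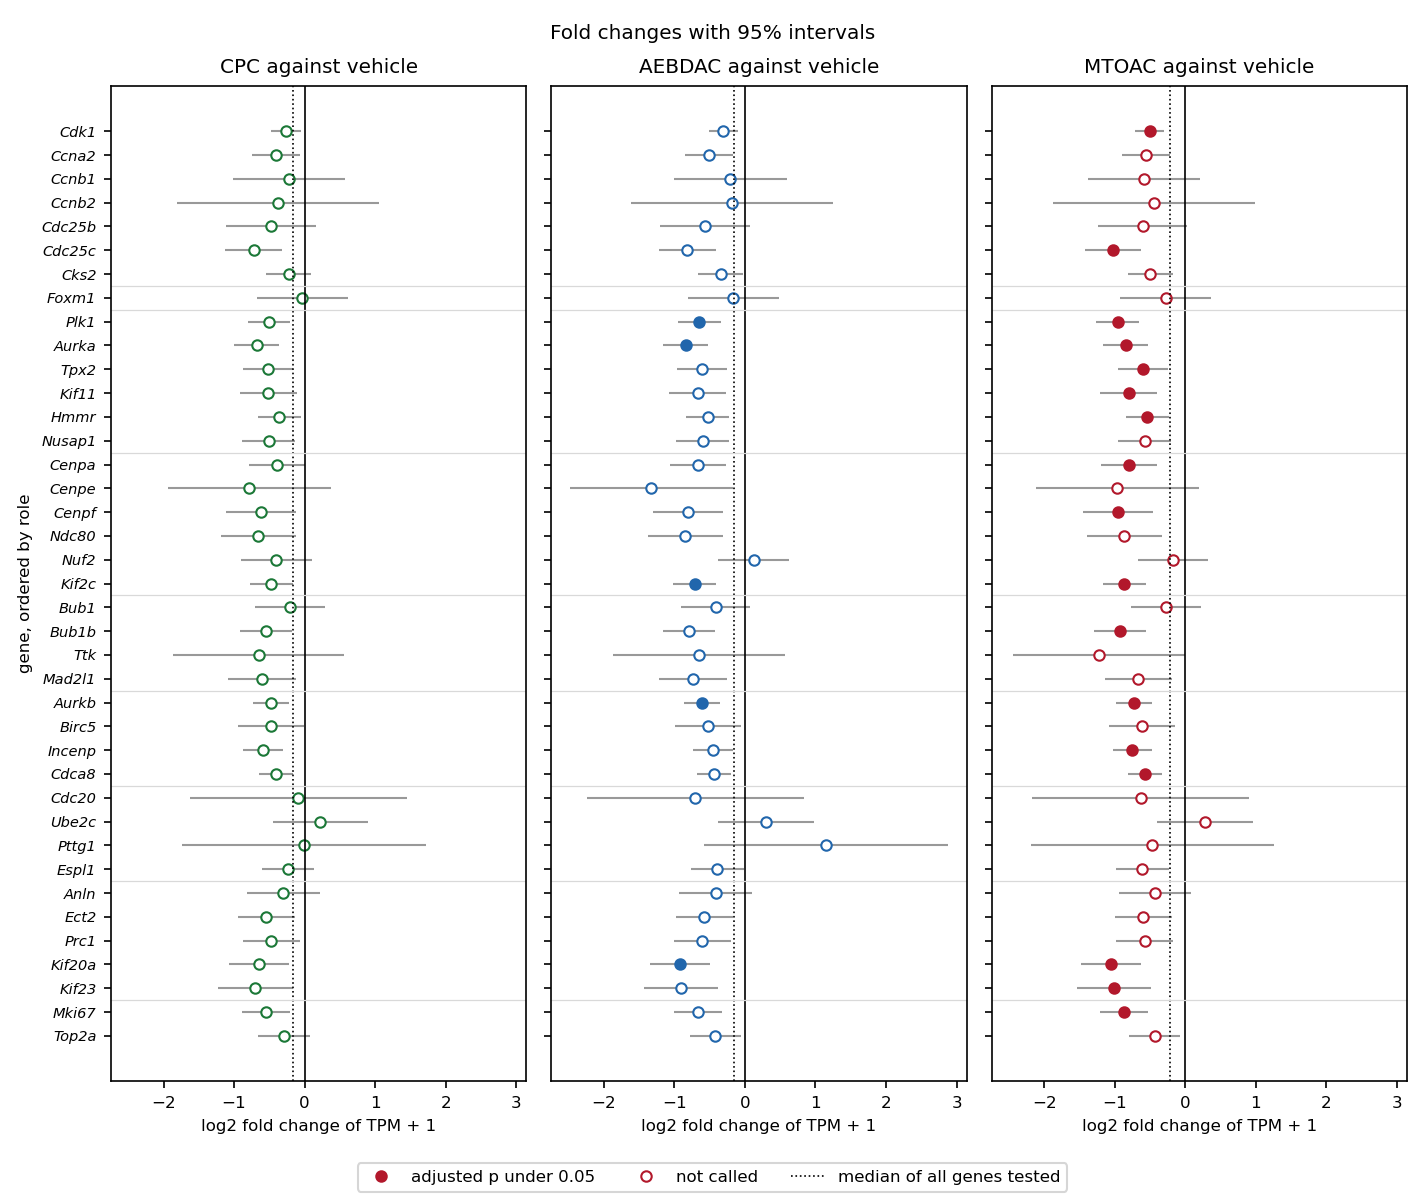
Fold change with its 95% interval for each of the 39 genes (rows) with CPC, AEBDAC and MTOAC against vehicle (panels, x axis in log2 of TPM + 1); filled points have an adjusted p under 0.05. With MTOAC 17 points are filled, with AEBDAC 5 and with CPC 0, and the dotted lines mark the median of all genes tested at -0.17, -0.16 and -0.22.

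Mean levels were lowest with MTOAC for most of the genes, but no gene was called between compounds. Vehicle had the highest mean for 35 of the 39 genes, the exceptions being Nuf2, Cdc20, Ube2c and Pttg1. MTOAC had the lowest mean for 27, AEBDAC for 10 and CPC for 1. The full order, MTOAC below AEBDAC below CPC below vehicle, held for 23 genes. In the 3 comparisons between compounds, each over 12009 genes, limma called 0 of the 39 genes, and it called 0% of all genes. In MTOAC against CPC the median fold change of the 39 was -0.21 log2, beside -0.05 for all genes, and 6 genes were lower at an unadjusted p under 0.05 (15.4%, against 2.81% of all genes). The smallest p was that of Plk1, at -0.46 ± 0.14 log2 (95% interval -0.76 to -0.15, adjusted p = 1). In MTOAC against AEBDAC the median was -0.13, beside -0.06, and 2 genes were lower at an unadjusted p under 0.05 (2% of all genes): Incenp at -0.30 and Plk1 at -0.31 (95% interval -0.62 to -0.01). In AEBDAC against CPC the median was -0.13, beside 0.01, and 1 gene, Nuf2, was higher at an unadjusted p under 0.05, at 0.52 (0.999% of all genes). MTOAC, which has no aromatic ring, and CPC and AEBDAC, which each have one, were not separated at any of the 39 genes after adjustment. The median half-width of the 95% intervals over the 39 genes was 0.40 log2, and a missed threshold does not show that the compounds act alike. The concentrations of the compounds differed as well.

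Some other G2 and mitosis genes were called lower as well. Of 76 further G2 and mitosis genes 73 were tested, with 0, 4 and 21 called lower with CPC, AEBDAC and MTOAC, or 0%, 5.48% and 28.8% of the list against 0.0333%, 0.883% and 5.75% of all genes tested. The medians were -0.33, -0.42 and -0.52 log2, beside -0.17, -0.16 and -0.22 for all genes. Pimreg, a regulator of the metaphase to anaphase transition, fell to 53.7 ± 3.51 TPM with MTOAC, against 119 ± 2.79 TPM with vehicle (-1.13 ± 0.13, adjusted p = 0.00376), and stood at 65.5 ± 13.3 TPM with AEBDAC (adjusted p = 0.0203). Tacc3, which stabilises spindle microtubules, Ccnf, the cyclin F of an SCF ubiquitin ligase, and Cdkn3, a CDK-binding phosphatase, were also called lower with AEBDAC. With MTOAC the smallest p after Pimreg belonged to Kif22, a kinesin of chromosome arms, Tacc3, Cdca5, which encodes the cohesin protector sororin, and Ccnf. Of the 15 subunits and activators of the anaphase-promoting complex, only Fzr1, its activator in G1, was called, with 28.4 TPM with MTOAC against 40.9 TPM with vehicle (-0.51, adjusted p = 0.0278), which makes 6.67% of that list, near the 5.75% of all genes. The medians with CPC, AEBDAC and MTOAC were -0.13, -0.24 and -0.14, beside -0.17, -0.16 and -0.22 for all genes.

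Of the regulators that act on CHR and CCAAT elements (DREAM, MuvB, MYB and NF-Y, 14 of 15 tested), 2 were called lower with MTOAC (14.3%, against 5.75% of all genes): Nfya, the DNA-binding subunit of NF-Y, at -0.68 (adjusted p = 0.0405), and Tfdp1, a partner of E2F, at -0.41 (adjusted p = 0.0481). The medians of this list were -0.27, -0.31 and -0.24 with CPC, AEBDAC and MTOAC, beside -0.17, -0.16 and -0.22. Of 38 S phase genes 0, 1 and 3 were called lower with CPC, AEBDAC and MTOAC, or 0%, 2.63% and 7.89%, against 0.0333%, 0.883% and 5.75% of all genes. The share with MTOAC is near that of all genes. At an unadjusted p under 0.05, 31.6%, 39.5% and 50% were lower, against 11.8%, 15.2% and 21% of all genes. Without overlap 47.4%, 44.7% and 42.1% lay lower, against 18%, 19.2% and 22.4% of all genes. Their medians were -0.38, -0.37 and -0.48, beside -0.17, -0.16 and -0.22. Ccne1, the cyclin E of the G1 to S transition, was called with both AEBDAC and MTOAC, and E2f2 and Tk1 with MTOAC. E2f8, a repressor among the E2F factors, rose to 11.2 ± 2.07 TPM with MTOAC, against 4.97 ± 1.21 TPM with vehicle (1.04, adjusted p = 0.0394). It was the only S phase gene called higher with MTOAC, 2.63% of the list against 0.791% of all genes. Of the p53 targets and cell cycle brakes (18 of 19 tested) Btg2, an antiproliferative gene, and Cdkn2c, an inhibitor of CDK4 and CDK6, were called lower with MTOAC, and Sesn2, a stress-induced inhibitor of mTORC1 signalling, was called higher (118 TPM against 63.2 TPM with vehicle, 0.91, adjusted p = 0.0359), and none with CPC or AEBDAC. These are 11.1% and 5.56% of the list, against 5.75% and 0.791% of all genes, and the median with MTOAC was -0.24, beside -0.22 for all genes.

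The summed neuronal markers were lower in the treated libraries, mostly through Map2. All 6 were tested, and they summed to 330 to 398 TPM with CPC, 313 to 353 TPM with AEBDAC, 263 to 351 TPM with MTOAC and 434 to 483 TPM with vehicle. Map2, called lower with MTOAC, made up 297 to 349, 272 to 305, 234 to 313 and 388 to 431 TPM of these sums. Without Map2 the sums overlapped, at 33.5 to 49.1 TPM with CPC, 35.2 to 48.3 TPM with AEBDAC, 29.4 to 45.3 TPM with MTOAC and 42.2 to 51.9 TPM with vehicle. Dcx also lay lower without overlap, at 6.38 to 8.58, 5.90 to 7.95, 4.47 to 9.11 and 10.4 to 12.9 TPM in the same order. With each compound 2 of the 6 lay lower without overlap (33.3%), against 18%, 19.2% and 22.4% of all genes with CPC, AEBDAC and MTOAC. Oligodendrocyte markers, 4 of 7 tested, summed to 37.8 to 54.3, 36.9 to 53.4, 35.7 to 48.8 and 53.6 to 76.5 TPM in CPC, AEBDAC, MTOAC and vehicle libraries, with Cnp called lower with MTOAC. Astrocyte sums were 29.2 to 45.0, 29.9 to 43.7, 19.7 to 58.8 and 20.1 to 54.9 TPM in the same order, and mesenchymal sums 1595 to 2133, 1799 to 2188, 1728 to 2224 and 1558 to 1866 TPM. Vim made up 1550 to 2079, 1747 to 2126, 1670 to 2165 and 1503 to 1827 TPM of the mesenchymal sums. Col1a1, Col1a2 and Col3a1 stayed at or under 0.837 TPM in every library. Microglial markers stayed at or under 2.25 TPM in sum and pluripotency markers at or under 16.7 TPM in every library. Among OPC markers, Olig1 was called lower with AEBDAC and Olig1, Gpr17 and Pdgfra with MTOAC. The part of cell composition in the lower mitotic genes was not tested.

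The 39 genes did not vary as 1 block. Over the 12 libraries the median correlation between pairs was 0.37 (741 pairs), and 0.31 for deviations from the group means; all values share the TPM scale and the libraries, so these are descriptions. With the mean of the other 38 genes, 11 genes had r over 0.8, led by Kif2c (0.92), Kif20a (0.92) and Kif11 (0.91), and 14 had r under 0.5, lowest Ube2c (-0.62), Nuf2 (-0.22) and Pttg1 (-0.12). Vehicle library 1 was the highest vehicle library for 29 genes and the lowest for 6: Cks2, Plk1, Incenp, Cdca8, Ube2c and Pttg1. MTOAC library 3 was the highest MTOAC library for 24 genes and the lowest for 9, among them again Cks2, Plk1, Incenp, Cdca8 and Pttg1.

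Several of the genes share sequence with others. Exons overlap those of a gene on the opposite strand for Ccna2 (Exosc9, 510 bases), Prc1 (Rccd1, 911 bases), Cdc25c (Gm3550, 623 bases), Ube2c (Tnnc2, 592 bases), Cdca8 (9930104L06Rik, 232 bases), Nusap1 (Oip5, 172 bases), Plk1 (Gm44985, 156 bases), Cdc25b (Spef1, 92 bases) and Cdc20 (Elovl1, 53 bases), and for Foxm1 those of Tex52 (144 bases) and Gm44596 (97 bases) on the same strand. Pseudogene copies of at least 95% identity exist for Ccnb1 (99.2%, 98.1% and 97.4%), Mki67 (98.6%), Cdc20 (95.6%) and Mad2l1 (95.4%), and these were listed at no more than 1.87 TPM in any library. Levels of these genes are uncertain to the extent that reads were divided between such copies.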

How the data were processed

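For each library the authors deposited TPM values of 35385 gene symbols. Per the submitters' processing notes, Salmon and mm10 were used; neither version nor annotation is given in the sources used here. Per the labels' protocols, the libraries were poly(A)-selected, 150 base paired-end and made by a kit not described as keeping strand. TPM are shares of a library, so a rise of abundant transcripts lowers all others, and they keep no depth.

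Groups came from the treatment labels. All 12 libraries entered 1 fit in limma 3.58.1 (R 4.3.3, trend and robust empirical Bayes) on log2(TPM + 1) with 4 group means. The filter (1 TPM or more in 3 or more libraries) left 12009 genes, tested two-sided in 6 comparisons with Benjamini-Hochberg adjustment over all genes and calls at 0.05. With 3 libraries a side, the smallest p of an exact permutation test is 0.1. The median of all genes tested shifted by -0.17, -0.16 and -0.22 log2 with CPC, AEBDAC and MTOAC, and is printed beside medians of the 39.

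Replicate numbers come from the titles. They were taken to pair libraries where all 3 correlations of deviations from group means exceeded 0.1: 0.34, 0.31 and 0.23 for CPC and vehicle, 0.33, 0.36 and 0.30 for MTOAC and AEBDAC, and 0.28, 0.42 and 0.23 for AEBDAC and CPC. The other 3 comparisons did not meet this.

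The 39 genes, the other lists and the markers were chosen with earlier results of these data known. Levels per library are given for 11 core genes, for every gene called, and for the lowest and highest fold change of each comparison with vehicle; other genes by range or fold change. Alternatives were the pseudocount, the filter, quantile normalization, rescaling without mitochondrial genes, the replicate block, 2-group fits and leaving out each library. Promoters are from RefSeq (GRCm38.p6), exon overlaps from GENCODE M21, and pseudogene copies from minimap2 2.31-r1302 (at least 95% identity over 200 bases).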

Additional observations from a re-analysis of the deposited data

How the results depend on the processing

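The medians of the 39 genes kept their sign under all alternatives and moved by less than the 0.20 log2 spread between replicates, while counts of calls moved more. For MTOAC against AEBDAC and for AEBDAC against CPC the medians, both -0.13, were themselves smaller in size than this spread. With each library left out in turn, the median ran from -0.52 to -0.39 with CPC, -0.63 to -0.51 with AEBDAC, -0.72 to -0.56 with MTOAC, -0.26 to -0.13 for MTOAC against CPC, -0.19 to -0.00029 for MTOAC against AEBDAC and -0.16 to -0.08 for AEBDAC against CPC. The called counts then ran from 0 to 0 of the 39 genes with CPC, 0 to 1 with AEBDAC and 4 to 19 with MTOAC, and over all genes from 1 to 5, 9 to 104 and 149 to 573, and from 0 to 1 for MTOAC against CPC, against 8, 153, 785 and 0 with all libraries. With the replicate block, 2, 18 and 25 of the 39 genes and 184, 1072 and 1904 of all genes were called with CPC, AEBDAC and MTOAC; with the block and quantile normalization 1 and 16 of the 39 with CPC and AEBDAC, and 115, 907 and 1194 of all genes. AEBDAC and MTOAC did not meet the criterion for pairing with vehicle, so their counts under the block rest on a pairing that was not established. The block changed no call between compounds. Ccnb2 was not called with MTOAC under the block either (adjusted p = 0.0881, against 0.733 without it). Quantile normalization alone gave 16 calls over all genes with CPC and 430 with MTOAC, 213 higher and 217 lower against 95 higher and 690 lower without it. It left 4 of the 39 called lower with AEBDAC and 13 with MTOAC. The medians of the 39 were then -0.29 with CPC, -0.44 with AEBDAC and -0.43 with MTOAC, against -0.47, -0.60 and -0.61 without it. Without the filter, 0 and 11 of the 39 and 38 and 404 of all genes were called with AEBDAC and MTOAC, and 1 of all genes in both MTOAC and AEBDAC against CPC. A pseudocount of 0.1 left 3 of the 39 with AEBDAC. Fits of only the 2 groups compared called 0 of the 39 with AEBDAC and with MTOAC, and 0, 3 and 17 of all genes with CPC, AEBDAC and MTOAC, and 1 of all genes in both MTOAC against AEBDAC and AEBDAC against CPC. These fits estimate the spread from the libraries of 2 groups only, and whether this lowered the counts was not tested. The cause of the other moves was not tested either.

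All 17 genes called with MTOAC and all 5 with AEBDAC kept their sign under the 14 alternatives, and 33, 35 and 34 of the 39 did so with CPC, AEBDAC and MTOAC. Signs that turned belonged to genes not called. With quantile normalization, with or without the block, these were Foxm1 (0.15 with CPC, 0.0021 with AEBDAC), Cdc20 (0.12 with CPC), Pttg1 (0.14 with CPC), Ccnb2 (0.032 with AEBDAC) and Nuf2 (0.11 with MTOAC); rescaling without mitochondrial genes gave Foxm1 0.0079 with CPC. With libraries left out, fold changes with CPC ran from -0.56 to 0.28 for Ccnb1, -0.86 to 0.25 for Ccnb2, -0.49 to 0.12 for Cdc20, -0.28 to 0.32 for Foxm1, -0.59 to 0.68 for Pttg1 and -0.00039 to 0.42 for Ube2c. With AEBDAC they ran from -0.55 to 0.29 for Ccnb1, -0.63 to 0.44 for Ccnb2, -0.41 to 0.18 for Foxm1 and -0.092 to 0.34 for Nuf2, and with MTOAC from -0.96 to 0.18 for Ccnb2, -1.43 to 0.085 for Cdc20, -0.52 to 0.068 for Foxm1 and -0.034 to 0.50 for Ube2c. Summing Cks2 with Gm15452, chosen after seeing the data, added Cks2 to the calls with AEBDAC and MTOAC. The depth behind the TPM is unknown, so the precision of low genes such as Cdc20, Ttk and Cenpe cannot be given.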

Other observations

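Vehicle library 1 and MTOAC library 3 deviated from the other libraries of their groups in similar genes. A deviation here is log2(TPM + 1) minus the mean of the other libraries of the group. The median of this difference over all genes tested was then subtracted. Among the 31 of the 39 genes that averaged 10 TPM or more over the 12 libraries, 17 deviated upward and 9 downward in both libraries, and 5 went opposite ways. The deviations correlated across these genes with r = 0.31 and rho = 0.44, and across the 6302 tested genes at that level with r = 0.57; genes are not independent, and no p is given. Among the 31 genes the deviation in both libraries was higher for genes with more annotated exonic bases, with rho = 0.47 in vehicle library 1 and 0.50 in MTOAC library 3. The genes that deviated downward in both include Cks2, Plk1, Incenp and Cdca8. The source of this shared pattern was not tested.

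Ccnb2 was highest in library 1 of every group, at 15.9 TPM with CPC, 17.5 TPM with AEBDAC, 15.9 TPM with MTOAC and 25.5 TPM with vehicle. Libraries 2 and 3 of the same groups had 4.16 to 7.78 TPM.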
